A study of Rattus norvegicus with 27 samples.

Results

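The regions described here are 65633 bins of 500 bp in the rat genome that hold few measured CpG sites, lie apart from CpG-rich unmethylated DNA and carry intermediate methylation. They were selected on the mean methylation level over the 12 libraries of the second of 2 deposited tables. Sites on the autosomes with at least 10 reads in each of these 12 libraries were taken, and a bin was kept when it held 3 to 9 such sites and its mean level lay from 10 to 80%. It also had to lie more than 4 bins (2 kb) from any bin with 10 or more sites and a level under 10%, called a dense unmethylated bin below. The members make up 69.1% of the 95043 autosomal bins with 3 to 9 sites, 51.6% of the 127106 bins with at least 3 sites, and hold 287838 sites. A level is the percentage of reads at a CpG that carry an unconverted C, so the levels that chose the members are given as a description and not as a finding.

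In mammalian genomes most CpG sites outside CpG islands are methylated, while the CpG-rich islands at many promoters stay unmethylated. DNA methyltransferases write the mark, Dnmt3a being one that can place it on unmethylated DNA, and Tet enzymes such as Tet3 oxidise it on the way to its removal. An intermediate level can come from cells, alleles or neighbouring sites that differ. In bulk tissue a share of methylated reads cannot tell a mixture of cell types from partial methylation within each cell, and a different number of cells of a type cannot be told apart from a different level per cell.

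The study measured DNA methylation by reduced representation bisulfite sequencing (RRBS), which sequences restriction fragments enriched for CpG after unmethylated C has been converted to T. The tissue was renal outer medulla, taken from Dahl salt-sensitive (SS) rats, a strain that becomes hypertensive on a high-salt diet, and each of the 27 libraries is 1 rat per the labels. In the first table, SS rats of the MCW colony ate the purified AIN-76A diet with 0.4% NaCl until 8 weeks of age (MCW_LS, n = 3) or with 4% NaCl during 14 days from the age of 6 weeks (MCW_HS, n = 4). SS rats of the CRL colony ate the non-purified 5L2F diet with 0.75% NaCl until 8 weeks of age (CRL_LS, n = 4) or, like MCW_HS, AIN-76A with 4% NaCl (CRL_HS, n = 4). In CRL rats the salt content and the base of the diet therefore changed together and cannot be told apart. The second table holds MCW SS rats. PRE_LS rats (n = 4) were on 0.4% NaCl, were operated like the others and were sampled before the start of GapmeR and high salt. GapmeRs are antisense oligonucleotides that lower the RNA they pair with. In HS_SCR (n = 4) a scrambled GapmeR was given intra-renally at 4 mg/kg, followed by 7 days on 4% NaCl. In HS_DT (n = 4) GapmeRs against Dnmt3a and Tet3 were given by the same route at 2 mg/kg each, again with 4% NaCl, for a time stated as 7 with no unit. The ages of the rats of the second table are not stated in the labels, and neither is the sex of any rat.

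The tables hold read counts only, so the tissue label and the targeted genes could not be checked against marker genes. Libraries of the first table held 35040331 to 95102303 CpG reads, and those of the second 174400859 to 257658964. Per the labels all libraries of a table carry the same lane number. The members had a median of 71.4 reads per site and library in the second table and 35.2 in the first. Genes, annotated features and sequences are not given, because no genome of the rn5 build of the files was used here. HS_SCR replicate 4 stood below the other rats of the second table in mean level over members (58.7% against 59.6 to 60.4%). The differences of mean level over all members that use it are given without it too. So are the counts of small p over all members in the main test, and the gaps of named bins except chr8:23722501-23723000. Other values include that rat unless stated.

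The members were mostly well above the middle of their allowed range. Their median level in the second table was 64.8%, with quartiles of 51.4 and 71.9%, and 50286 of them (76.6%) lay from 50 to 80%. Only 1979 (3.02%) lay from 10 to 20% and 2829 (4.31%) from 20 to 30%. The measured sites were packed closely, since the first and last site of a member were a median of 101 bp apart, and 25421 members (38.7%) held the minimum of 3 sites. The isolation was wide as well: the nearest dense unmethylated bin was a median of 58.5 kb away. Sparse coverage and a sparse genome are not the same, however, as 16807 members (25.6%) had 10 or more listed CpG positions once shallow ones were counted.

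**Figure D1:**
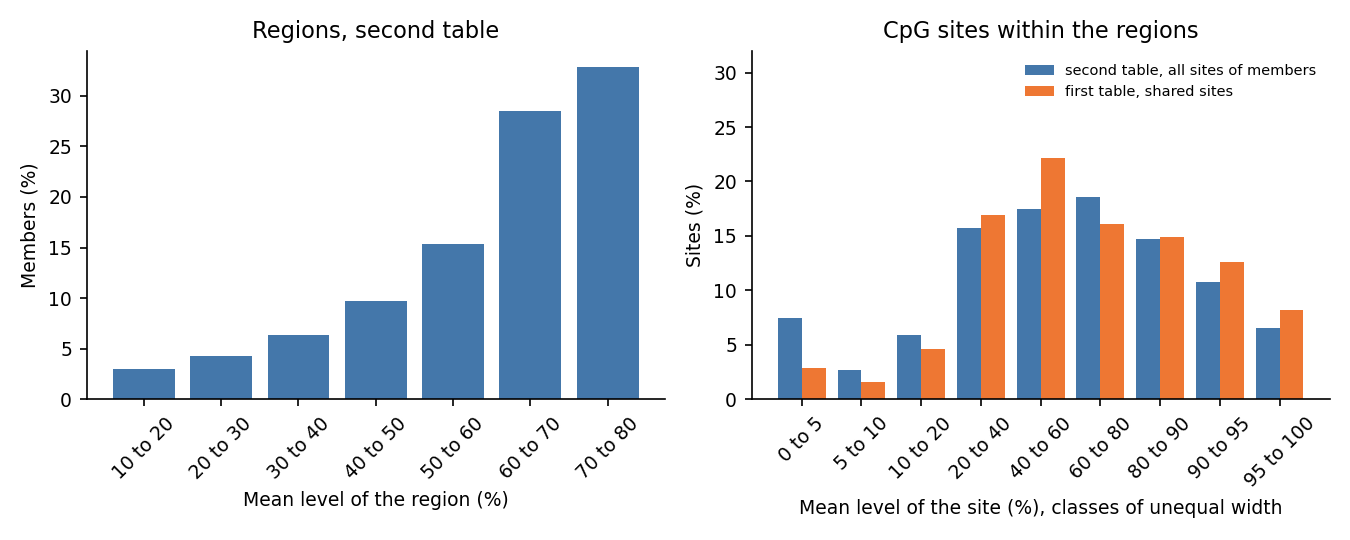
Left, share of the 65633 members (%) by their mean level over the 12 rats of the second table. Right, share of the CpG sites within members (%) by mean level, for all 287838 sites in the second table and for the 81524 sites shared with the first table; the classes have unequal widths. Regions pile up at 60 to 80%, while their sites cover the whole scale.

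An intermediate mean seldom came from sites of equal level. The highest and lowest site of a member differed by a median of 61.9 points, with quartiles of 48.0 and 80.8, and in only 2609 members (3.98%) did all sites lie within 20 points of each other. Sorted by the levels of their sites in the second table, the members fall into 4 make-ups. All sites lay from 10 to 80% in 11950 members (18.2%), which are called all-intermediate below, although their sites need not be alike. At least 1 site was over 80% and none under 10% in 28102 (42.8%). A site under 10% stood beside a site over 80% in 16532 (25.2%), and 9049 (13.8%) had a site under 10% and none over 80%. Median levels were 49.2, 70.6, 67.4 and 35.3% in that order.

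Many low sites had few or no methylated reads next to methylated neighbours. A site under 5% was found in 19592 members, and without such sites 8657 of these (44.2%) would have stood over 80%. In 4310 members (6.57%) there were 4496 sites with no methylated read in any of the 12 rats. Their summed depth was 156 to 5938 reads (median 476), and a floor of 3 reads puts the highest level these depths allow at 1.92% for the shallowest and 0.630% for the median site. These limits cover counting error only, and RRBS reads carry no molecular identifiers here. A position with T in place of C in the DNA of these rats would be read as unmethylated too. The low sites were not checked against such variants, so a variant cannot be told apart from an unmethylated CpG here. Of these sites 401 were also common sites of the first table, and all 401 were under 5% there, 181 of them with no methylated read in any of the 15 rats.

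The members with the smallest spread over the 12 rats show this make-up in its plainest form. The bin of lowest SD, chr16:53899501-53900000, stood at 25% in 11 rats and 25.1% in the other. Its 3 sites were at 0, 0 and 100%, with no methylated read at positions 53899535 and 53899548 and every read methylated at 53899610, and all 3 have counts equal to those of other positions in the table. On chr7:139742001-139742500 the site at 139742005 was at 0.298% and those at 139742018 and 139742080 at 100%, and 11 rats stood at 75%. The bin chr3:86200501-86201000 varied from 48.1 to 49% over the rats at 1644 to 4302 reads per rat, with sites at 0, 92.4, 0.0879 and 96.1%. No site of these 3 bins had an intermediate mean level.

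Neighbouring sites resembled each other most when they were a few base pairs apart. The median absolute difference of level was 9.37 points at a spacing of 2 to 4 bp (15083 pairs), 20.1 points at 10 to 19 bp (46702 pairs) and 31.0 points at 100 bp to under 200 bp (6951 pairs). Even at 2 to 4 bp the upper quartile was 32 points. These differences recurred in the rats of the first table: for pairs measured in both tables the signed difference between neighbours moved by a median of 2.91 points between the tables at 2 to 4 bp and 3.23 points at 10 to 19 bp. These are descriptions over pairs, which share reads where sites lie on 1 fragment.

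**Figure D2:**
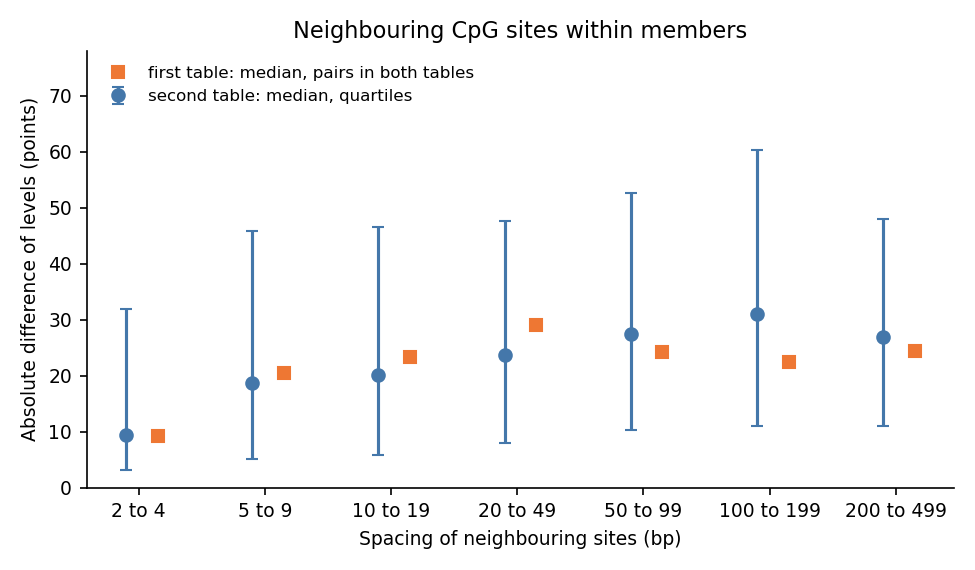
Absolute difference of mean level (percentage points) between neighbouring CpG sites of a member by their spacing in bp. Circles with bars give the median and quartiles in the second table, and squares the median in the first table for pairs present in both. The median grows from 9.37 points at 2 to 4 bp to 31.0 points at 100 bp to under 200 bp in the second table.

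Most members stood alone. With neighbours joined when at most 2 kb apart there were 55467 runs, of which 47394 held a single member and 100 held 5 or more. The longest run was chr19:61277001-61282000, where 10 adjacent bins with 61 sites were all members. Their levels were 41.3 to 62.0% in the second table, and the mean over the run was 50.9% ± 0.419 for the PRE_LS rats, 50.3% ± 0.336 for HS_SCR and 50.6% ± 0.580 for HS_DT (SD, n = 4 each). In the first table, whose rats played no part in the selection, the same run stood at 50.3% ± 0.485 in MCW_LS (n = 3) and 49.8% ± 0.664 in MCW_HS, and CRL_LS and CRL_HS had 49.8% ± 0.845 and 49.4% ± 1.61 (n = 4 for these groups). The mean of the run lay within 47.2 to 51.4% in all 27 rats, while its single bins had SDs of 1.39 to 5.32 points over the rats of the first table, at a median of 248.1 reads per site in the second table. The next run, chr16:35905501-35915500, held 9 members with a mean of 68.9%, and 6 of them contained positions with counts equal to those of another position. Such equal counts occurred in 5243 members (7.99%) and in 16.9% of all bins with at least 3 sites. Over 4616 pairs of adjacent members the levels were related with r = 0.460, a description over pairs that share libraries and depth.

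The intermediate level recurred in the rats of the first table. Of the members, 16123 (24.6%) had at least 3 common sites there, and 14629 of these (90.7%) again lay from 10 to 80%, with 91 under 10% and 1403 over 80%. The levels of the tables differed by a median of 2.55 points in absolute value, and across these regions Pearson's r was 0.931 and Spearman's rho 0.898. The regions are not independent replicates, and the tables share strain, tissue and assay but no rat. Members of 70 to 80% left the range most often, as 78.9% of them stayed in it against 99.6% of those of 30 to 50%.

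The largest disagreements between the tables came with other sites being measured in the same bin. On chr20:13630501-13631000 the level was 50.6% ± 6.71 over 12 rats of the second table and 96.2% ± 2.62 over 15 of the first (SD), but none of the 3 and 6 sites was common to both. On chr1:110638501-110639000 it was 77.8% ± 4.68 against 24.2% ± 1.17 with 1 shared site. On chr5:86901501-86902000 it was 47.2% ± 6.77 against 89.3% ± 6.40, again with 1 shared site. The bin chr5:62663501-62664000 had 72.2% ± 2.90 over 7 sites and 19% ± 3.30 over the 3 of them that the first table held. Site by site the tables were closer, with r = 0.974 over 81524 shared sites and a median absolute difference of 2.70 points.

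The median spread between rats of a group lay between a smaller and a larger bound on the error of read counting, and it was above the larger bound more often in members with no site over 80%. The within-group SD had a median of 3.48 points in the second table and 4.58 points in the first. The SD that counting alone would give was a median of 2.27 points in the second table if sites were read independently and 4.34 points if the sites of a bin shared their reads, and 3.61 and 6.78 points in the first table. In the first table, whose rats did not choose the members, the within-group SD was above the larger counting bound in 39.2% of the 3246 all-intermediate members and in 49.4% of the 1364 with a site under 10% and none over 80%. It was above it in 11.2% of the 8979 members with a site over 80% and none under 10%. The second table gave 46.8, 57.4 and 12.6%. An SD from so small a number of rats can exceed a bound in many bins by counting alone. The share expected from counting was not worked out, so these shares are no measure of spread beyond it. These make-ups differ in mean level too, and the part of the level in this order was not tested. For isolated bins of 3 to 9 sites over 80% (14734 bins) the share was 14.1% in the first table, and for members as a whole 22.2%. It was higher than in members in the other bins of 3 to 9 sites. Isolated bins under 10% had 25.3%, and bins of 10 to 80% within 4 bins of a dense unmethylated bin had 34.8%.

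**Figure D3:**
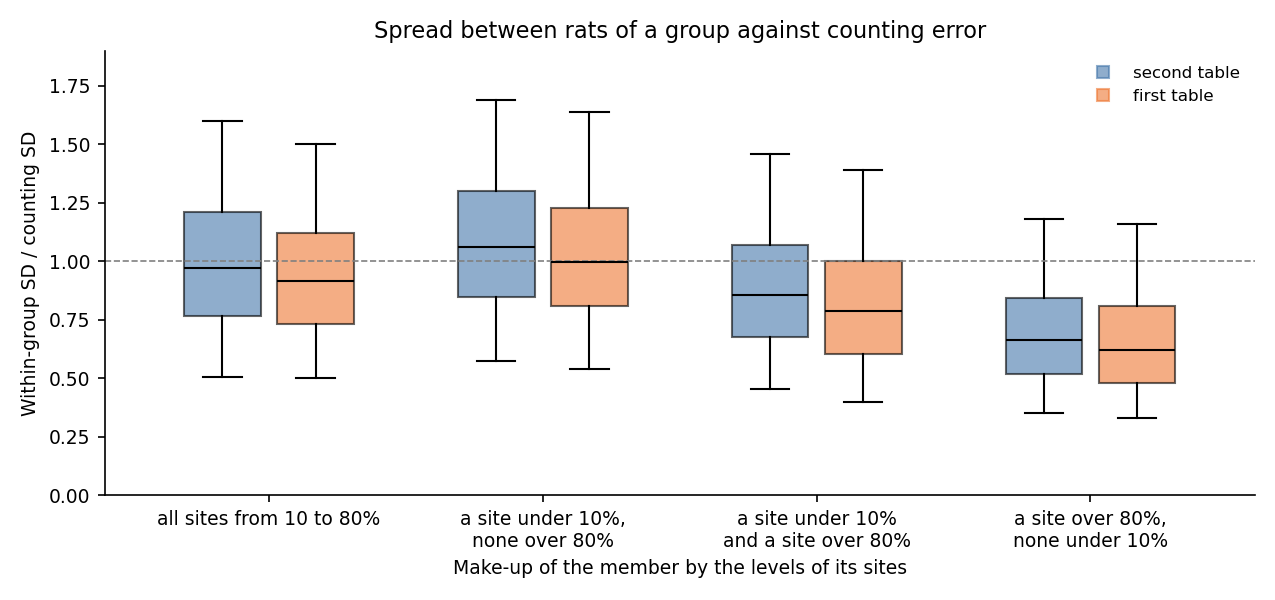
SD between rats of a group divided by the SD that read counting would give if the sites of a bin shared their reads, for members of each make-up (boxes: quartiles and median; whiskers: 5th and 95th percentiles; dashed line: ratio of 1). Medians in the second table are 0.973, 1.06, 0.857 and 0.664 from left to right, and the first table shows the same order.

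The most variable members spanned much of the scale between single rats. On chr11:34933001-34933500 (3 sites) PRE_LS rats had 27.3, 63.3, 33.3 and 36.4%, HS_SCR rats 12.5, 66.7, 61.9 and 37.8%, and HS_DT rats 50, 61.9, 64.4 and 93.8%. The SD over the 12 rats was 22.1 points, against counting bounds of 5.83 and 10.1 points at 48 to 168 reads per rat. The groups overlap, and the mean levels of the 3 sites were 49.2, 49.5 and 53.7%. On chr1:242121501-242122000 the rats ran from 22.2 to 87.5% with an SD of 20.4 points, and PRE_LS alone held values of 81.0, 25, 22.2 and 75.4%. On chr20:5592501-5593000 they ran from 20.7 to 95.9% with an SD of 20 points, both extremes being single rats of HS_DT and PRE_LS. All 3 bins are all-intermediate.

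Mean member level is the first comparison between groups, and it is described without a test because the members were chosen with these data known. In the first table it was 62.3, 62.5 and 62.4% in the MCW_LS rats and 62.7, 62.9, 63.5 and 63.2% in the MCW_HS rats. The groups did not overlap, and high salt was higher by 0.686 points (SE 0.182) and in 12 of 12 pairs of rats. The CRL_LS rats had 61.8, 62.2, 62.2 and 62.7% and the CRL_HS rats 63.0, 62.4, 63.2 and 62.7%, a difference of 0.628 points (SE 0.258) with 14 of 16 pairs higher on high salt. The salt differences of the colonies differed by 0.0584 points (SE 0.316). Per rat the median count at a common site was 31 to 66 reads in MCW_LS and 34 to 54 in MCW_HS, and 24 to 44 in CRL_LS and 25 to 43 in CRL_HS, and its part in these values was not tested.

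The difference with salt was larger in members with no site over 80%, although no difference between make-ups was tested. In the all-intermediate members MCW_LS rats had 49, 47.8 and 48.7% and MCW_HS rats 49.5, 50.3, 50.6 and 50.8%, a difference of 1.78 points (SE 0.449, 12 of 12 pairs). CRL_LS rats had 47.1, 47.7, 47.5 and 48.9% there and CRL_HS rats 49.7, 48.9, 49.4 and 48.7%, a difference of 1.36 points (SE 0.443, 14 of 16 pairs). Members with a site under 10% and none over 80% differed by 1.70 points in MCW (SE 0.571) and 1.39 points in CRL rats (SE 0.484). Those with a site over 80% and none under 10% differed by 0.294 points in MCW (SE 0.276) and 0.306 points in CRL rats (SE 0.222), and without 1 rat these values ran from 0.114 to 0.495 and from 0.168 to 0.443. Those with a site under 10% and a site over 80% differed by 0.120 points in MCW rats (SE 0.306), with -0.0609 to 0.384 without 1 rat, and by 0.412 points in CRL rats (SE 0.264), with 0.2 to 0.57. With each rat left out in turn, the all-intermediate members stayed between 1.45 and 2.06 points in MCW and between 1.15 and 1.72 points in CRL rats. A like order was seen by the level that chose the members. Members of 10 to 30, 30 to 50, 50 to 70 and 70 to 80% differed by 1.85, 1.79, 0.620 and 0.137 points in MCW rats. In CRL rats these values were 1.34, 1.45, 0.629 and 0.189 points. Make-up and level go together, and the part of each was not tested. The isolated bins over 80% differed by -0.0191 and 0.0107 points in the same comparisons, and those under 10% by 0.161 and 0.104 points. Bins of 10 to 80% that lie within 4 bins of a dense unmethylated bin, and so are no members, differed by 1.45 points in MCW (SE 0.536, 11 of 12 pairs) and 0.877 points in CRL rats (SE 0.454, 13 of 16 pairs), which is also higher on high salt. Points are not equal steps along the scale, as a level near 0 or 100% has less room to move.

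The MCW rats come in 2 ranges of animal numbers, and over all members the difference was in the same direction in both. Among animals 1155 to 1184 (2 rats per group) MCW_HS minus MCW_LS was 0.443 points over all members and 1.5 points over the all-intermediate ones. Among animals 1245 to 1249 (2 rats against 1) it was 0.907 and 1.96 points. Members with a site under 10% and a site over 80% differed by -0.205 points in the first range and 0.528 in the second, and those with a site over 80% and none under 10% by 0.0569 and 0.552. The animal numbers of the CRL rats form a single range. No comparison of such a small number of rats within a range was tested.

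In the second table the group means differed by less than the SE of the difference when all rats were included. PRE_LS rats had 60.1, 59.6, 60 and 60.1%, HS_SCR rats 60.4, 60.1, 60.4 and 58.7%, and HS_DT rats 60.2, 60, 59.8 and 59.8%. HS_SCR minus PRE_LS was -0.0505 points (SE 0.423, HS_SCR higher in 12 of 16 pairs), and 0.352 points without HS_SCR replicate 4. HS_DT minus HS_SCR was 0.0577 points (SE 0.421, HS_DT higher in 5 of 16 pairs), and -0.345 points without that rat. It was -0.261 among animals 781 to 785 and 0.287 among animals 862 to 871. HS_DT minus PRE_LS was 0.00716 points (SE 0.142, HS_DT higher in 8 of 16 pairs). In the all-intermediate members the HS_SCR rats stood at 48.6, 48.2, 48.6 and 45.8% and the PRE_LS rats at 47.9, 47.2, 48.0 and 47.9%, a difference of 0.0379 points (SE 0.689), or 0.695 points without HS_SCR replicate 4. The HS_SCR rats other than replicate 4 all lay above all PRE_LS rats there. Replicate 4 was also the lowest of its group in the other 3 make-ups. Salt here meant 7 days after surgery with a GapmeR, against 14 days of diet alone in the first table, so the values of the tables stand side by side without a comparison.

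**Figure D4:**
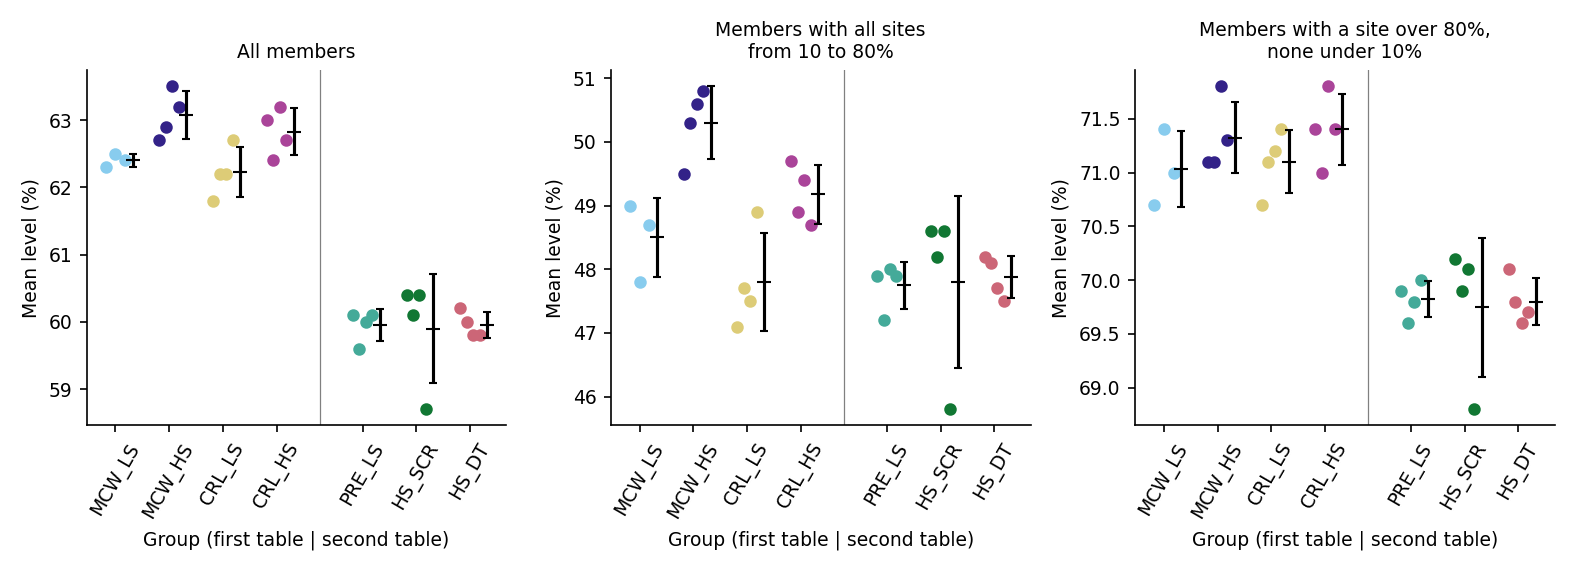
Mean level (%) per rat (points) with group mean and SD (bars) over all members (left), all-intermediate members (middle) and members with a site over 80% and none under 10% (right); the y axes do not start at 0 and differ. The MCW_HS rats lie above all MCW_LS rats in the left and middle panels, and HS_SCR replicate 4 lies lowest in each panel.

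No member passed the test in any comparison. The test was a quasi-binomial logistic model on the summed counts of a bin with dispersion moderated by limma, fitted to all bins with at least 3 common sites and a pooled level of 5 to 95%, and a call was a Benjamini-Hochberg adjusted p under 0.05 over all bins tested. For MCW_HS minus MCW_LS 0 of 16073 members and 0% of 28188 bins were called, and an unadjusted p under 0.05 was found in 899 members (5.59%), 605 of them higher on high salt, against 6.23% of all bins. For CRL_HS minus CRL_LS 0 of 16075 members were called, and 894 (5.56%) had an unadjusted p under 0.05, 631 of them higher on high salt, against 5.92% of all bins. Both shares lie under the background here, but limma on log ratios gave 6.06 and 6.18% of members against 5.58 and 5.78% of all bins, so the order depends on the test. Whatever their p, 54.1% of members and 54.6% of all bins had a higher mean in MCW_HS, and 55.2 and 55.5% in CRL_HS. For all bins with an unadjusted p under 0.05 the directions are not given here. The directions of such members therefore have no like background and are not read as a trait of the members.

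The colonies were compared on low and on high salt. On low salt their diets differed in NaCl (0.4% in MCW_LS, 0.75% in CRL_LS) and in base. Colony and diet cannot be told apart in MCW_LS minus CRL_LS. Over all members MCW_LS minus CRL_LS was 0.186 points (SE 0.199) and MCW_HS minus CRL_HS 0.244 points (SE 0.245). In all-intermediate members these differences were 0.719 (SE 0.504, 10 of 12 pairs) and 1.14 points (SE 0.379, 15 of 16 pairs), and in those with a site under 10% and none over 80% they were 0.750 (SE 0.658) and 1.06 points (SE 0.357, 15 of 16 pairs). For MCW_LS minus CRL_LS 822 of 16062 members (5.12%) had an unadjusted p under 0.05, against 5.62% of all bins, and for MCW_HS minus CRL_HS 921 of 16086 (5.73%), against 5.95%. Between the colonies the salt effects differed at an unadjusted p under 0.05 in 795 of 16079 members (4.94%), against 5.34% of all bins. The smallest adjusted p of a member was 0.626, 0.494 and 0.694 in these tests (limma-moderated quasi-binomial model). Without MCW_LS replicate 3, MCW_LS minus CRL_LS gave 7 called members (0.0436%) against 0.479% of all bins. One of them is named below, chr4:141729001-141729500. In all 7 the rat left out lay closer to the CRL_LS mean than the mean of the other MCW_LS rats did, in 3 of them beyond it. These bins were called only without that rat, which favours such a place for it, so this is no observation about the rat. Only MCW_LS replicates 1 and 2 remain in that test. In the called bin starting at chr14:46855001, 6 of 8 sites have counts equal to those of other positions.

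In the GapmeR experiment 2988 of 65633 members (4.55%) had an unadjusted p under 0.05 for HS_SCR minus PRE_LS, against 4.77% of all 96299 bins. The counts were 2767 (4.22%) against 4.41% of bins for HS_DT minus HS_SCR, and 3328 (5.07%) against 5.21% for HS_DT minus PRE_LS. Higher and lower members were nearly balanced, at 1408 and 1580, 1496 and 1271, and 1663 and 1665. Without HS_SCR replicate 4 that balance was lost in both comparisons that use it. HS_SCR minus PRE_LS then had 2231 higher and 1426 lower members (5.57% in all, against 5.75% of bins), and HS_DT minus HS_SCR 1255 higher and 2068 lower (5.06% against 5.19%), with 0 called. The smallest adjusted p of a member was 0.771, 0.430 and 0.380 in that order (limma-moderated quasi-binomial model), and 0% of all bins were called. These 3 comparisons share their groups pairwise. For all bins with an unadjusted p under 0.05 the directions are not given here, so the balance among members has no like background. Limma on log ratios called 0 members in all 8 comparisons, and in these 3 it found an unadjusted p under 0.05 in 4.96, 4.71 and 5.81% of members, against 4.77, 4.59 and 5.52% of all bins.

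The share of members at an unadjusted p under 0.05 differed by make-up. For MCW_HS minus MCW_LS the share was 9.27% of all-intermediate members, 10.8% of those with a site under 10% and none over 80%, and 3.75% of those with a site over 80% and none under 10%. Of all bins tested in that comparison it was 6.23%. For MCW_LS minus CRL_LS the shares of these make-ups were 9.61, 11.5 and 2.99%, against 5.62% of all bins. For MCW_HS minus CRL_HS they were 9.33, 12.2 and 3.81%, against 5.95%, and for HS_DT minus HS_SCR 6.81, 7.44 and 3.11%, against 4.41%. The same make-ups had the larger spread between rats of a group, as shown in the plot of SD against counting error. Dispersion was moderated along coverage and not along make-up, and its part in these shares was not tested. No difference between these shares was tested.

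The members with the smallest p whose groups did not overlap show what single regions looked like, although none passed the test. They were named by a rule on p-values and stand at the extremes of long lists, so their differences are a description. For MCW_HS minus MCW_LS the first is chr11:33583501-33584000, an all-intermediate bin of 6 sites read 198 to 342 times per rat. MCW_LS rats had 27.3, 21.6 and 26% and MCW_HS rats 42.2, 41.5, 44.4 and 41.3%, a gap of 17.4 points (SE 1.86, adjusted p = 0.576 in the limma-moderated model). The gap was widest at position 33583768, with 23.5% in MCW_LS and 55.0% in MCW_HS, and narrow at 33583840, with 35.7 and 41.1%. In CRL rats the diets overlapped, at 29.8 to 47.4% in CRL_LS and 25.4 to 45.7% in CRL_HS, and the rats of the second table lay from 31.0 to 39.8% in all 3 groups. The second table holds 7 sites in this bin and the first 6.

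On chr13:109987001-109987500 MCW_LS rats had 21, 16.9 and 13.9% and MCW_HS rats 42.5, 44.3, 39.0 and 30.7%. The sites at 109987290 and 109987314 carried most of it, with 26 against 52.9% and 19.4 against 49%. A bin that was lower on high salt, chr14:15629501-15630000, had 65.4, 64.4 and 57.8% in MCW_LS and 50.6, 51.7, 49.1 and 48.6% in MCW_HS, and all 6 of its sites have counts equal to those of other positions, so its place in the genome is uncertain. On chr17:26097001-26097500 MCW_LS rats had 41.7, 29.0 and 32.3% and MCW_HS rats 17.6, 17, 12.4 and 15.4%. CRL rats of the 2 diets ran from 0 to 55.6% in that bin, at 42 to 120 reads.

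For CRL_HS minus CRL_LS the first member is chr6:137744501-137745000 with 6 sites. CRL_LS rats had 23.0, 26.6, 27.2 and 37.2% and CRL_HS rats 47.2, 52.1, 51.2 and 43.0%, a gap of 19.9 points (SE 3.70, adjusted p = 0.626 in the limma-moderated model). At position 137744934 the means were 15.3 and 49.8%, and at 137744872 they were 65.9 and 73.0%. MCW rats overlapped between diets, at 29.3 to 53.2% on low and 41.9 to 58.0% on high salt. The bin chr10:89307001-89307500 was the second, with 11.8, 13.1, 11.4 and 16.4% in CRL_LS and 20.1, 25.1, 21.5 and 22.0% in CRL_HS. In MCW rats the order was the other way, at 20.5, 19.8 and 26% on low and 16.4, 15.9, 20.8 and 16.5% on high salt, and this is the member with the smallest p for a salt effect lower in MCW than in CRL rats (-13.7 points, SE 2.74, adjusted p = 0.694 in the limma-moderated model). Its site at 89307313 had no methylated read in any of the 27 rats over 2088 reads, which allows a level of up to 0.144%, while its neighbour at 89307300 stood at 30.3 to 50.3% in the 7 groups.

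The 2 members lower on high salt in CRL rats were chr16:83017001-83017500 and chr2:270205001-270205500. The first had 19.6, 31.1, 31.2 and 23.0% in CRL_LS and 18.2, 10.3, 8.81 and 14.9% in CRL_HS. The second had 44, 60.2, 53.8 and 41.9% against 28.4, 33.9, 24.6 and 13.9%, and the 4 MCW_HS rats there ran from 23.3 to 58.4%. The salt effect that was higher in MCW than in CRL rats with the smallest p was on chr19:59722501-59723000, where MCW_LS rats had 14.3, 13.0 and 14.9%, MCW_HS rats 26.7, 30, 45.3 and 39.5%, CRL_LS rats 31.4, 16.2, 22.4 and 30.4% and CRL_HS rats 21.4, 18.9, 13.1 and 23.1% (27.2 points, SE 6.02, adjusted p = 0.802 in the limma-moderated model). Its CRL groups overlap.

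Between the colonies, chr16:60043501-60044000 had 46.2, 46.0 and 46.2% in MCW_LS and 66.2, 58.5, 62.8 and 57.8% in CRL_LS. On high salt the MCW_HS rats had 47.6, 56.9, 59.5 and 55.7% and the CRL_HS rats 67.5, 65.3, 68.5 and 64.9%, so the colonies did not overlap on that diet either. The 12 MCW rats of the second table lay from 35.1 to 50.2%, below all 8 CRL rats, but over 8 sites, of which the added one at 60043814 stood at 14.4 to 17.1%. At position 60043793 the means were 38.1 and 56.1% in MCW_LS and MCW_HS and 65.9 and 80.6% in CRL_LS and CRL_HS, while at 60043740 they were 22.4, 33.1, 37.5 and 32.3%. On low salt, where the diets of the colonies differed too, the adjusted p was 0.626 in the limma-moderated model. On chr4:141729001-141729500 MCW_LS rats had 41.4, 36.6 and 31.4% and CRL_LS rats 20.5, 21.7, 20.4 and 21.3%, a gap of 15.5 points (SE 2.89). The CRL_HS rats there ran from 22.5 to 47.3% and overlapped MCW_HS. Without MCW_LS replicate 3, the lowest of its group, the gap was 18.0 points with an adjusted p of 0.0486 in the limma-moderated model. The MCW rats of the second table had 22.7 to 29.0% in PRE_LS, 22.3 to 34.7% in HS_SCR and 18.2 to 34.8% in HS_DT in this bin. All PRE_LS rats thus lay below all MCW_LS rats, but over 6 sites against 5 in the first table.

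On chr10:53395501-53396000 MCW_LS rats had 34.9, 29.3 and 42.2% and CRL_LS rats 21.8, 10.4, 13.2 and 9.84%, and on chr2:160077501-160078000 they had 13.9, 6.94 and 7.77% against 34.9, 20, 29.8 and 26.2%. On high salt both bins overlapped between the colonies. For MCW_HS minus CRL_HS the first member was chr4:194885001-194885500, with 74.3, 73.8, 76.1 and 77.1% against 59.2, 61.5, 50.4 and 59.6%, a gap of 17.7 points (SE 2.58, adjusted p = 0.494 in the limma-moderated model). On low salt its groups overlapped, since MCW_LS ran from 52.5 to 73.5% and CRL_LS from 38.2 to 60%. The bin chr13:114353501-114354000 had 95.6% ± 2.04 in MCW_HS and 83.3% ± 3.37 in CRL_HS (SD, n = 4 each) over 3 sites. The rats of the second table had 75.6 to 81.6% over 5 sites, and the site at 114353508, which is not among the 3, stood at 33.9 to 39.1% in their groups. Lower in MCW_HS were chr3:8536001-8536500 and chr3:8559501-8560000, with means of 58.9 and 59.4% against 72.0 and 72.6% in CRL_HS. These bins start 23.5 kb apart and never differed by more than 1.42 points in a rat of the first table. All 5 sites of the latter have counts equal to those of other positions, so its place is uncertain, and the bins are counted as 1 observation.

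In the GapmeR experiment the members named for HS_SCR minus PRE_LS lay on the same side of PRE_LS in HS_DT rats in all 4 cases. On chr3:129678001-129678500 (3 sites) PRE_LS rats had 17.8, 16.5, 18.2 and 18.9%, HS_SCR rats 31.5, 33.1, 30.2 and 27.4%, and HS_DT rats 26.7, 29.3, 26.2 and 32%. The sites at 129678019 and 129678023 carried it, with 19.7 and 23.6% in PRE_LS against 35.1 and 39.9% in HS_SCR, and 129678029 stayed under 3% in each group. On chr19:59908001-59908500 PRE_LS rats had 41.1, 31.9, 34.8 and 35.2%, HS_SCR rats 47.3, 48.6, 46.4 and 47.6%, and HS_DT rats 48.5, 43.3, 50.5 and 46.7%. On chr10:104275501-104276000 PRE_LS rats had 58.3, 57.0, 56.2 and 64.8%, HS_SCR rats 42.0, 42.1, 33.1 and 40.3%, and HS_DT rats 50, 38.0, 42.8 and 31.1%. In these 3 bins, as in the fourth given next, every rat on high salt lay on the same side of all PRE_LS rats with either GapmeR, and both comparisons share the 4 PRE_LS rats. The bins were named because PRE_LS rats stood apart from HS_SCR rats. That choice favours HS_DT rats on the same side, so their place is no check of a difference with salt. The gaps of HS_SCR to PRE_LS were 12.7 (SE 1.32), 11.7 (SE 1.98) and -19.7 points (SE 2.89), with adjusted p-values of 0.771, 1.000 and 0.771 in the limma-moderated model. Without HS_SCR replicate 4 they were 13.8, 11.7 and -20 points. The fourth bin, chr8:23722501-23723000, stood at 34.2% ± 1.58 in PRE_LS and 26.5% ± 0.767 in HS_SCR, with 31.8, 28.5, 29.8 and 25.4% in the HS_DT rats against a lowest PRE_LS rat of 32.5%, and all 7 of its sites have counts equal to those of other positions.

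For HS_DT minus HS_SCR the member with the smallest p was chr3:11673501-11674000, with 8 sites. HS_SCR rats had 38.5, 29.2, 25.3 and 27.9% and HS_DT rats 50.7, 54.3, 52.7 and 50.3%, a gap of 21.8 points (SE 3.01, adjusted p = 0.430 in the limma-moderated model). PRE_LS rats had 68.2, 32.5, 37.7 and 49% and spanned both groups. At position 11673686 HS_SCR had 36.2% and HS_DT 70.3%, and at 11673734 they had 3.92 and 6.11%. On chr17:25209501-25210000 HS_SCR rats had 48.8, 51.6, 50 and 44.7% and HS_DT rats 72.6, 62.5, 65.2 and 70.9%. Lower with the GapmeRs against Dnmt3a and Tet3 were chr6:144002001-144002500, with 34.1% ± 2.86 against 50.6% ± 2.90, and chr8:44295001-44295500, with 67.3% ± 1.31 against 77.2% ± 2.75. In that last bin the PRE_LS rats had 71.5, 72.6, 71.1 and 76.8% and lay between the others except for 1 rat. Without HS_SCR replicate 4 the gaps of these 4 bins were 21, 17.7, -15.6 and -10.3 points, in the order given.

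For HS_DT minus PRE_LS the smallest p belonged to chr15:54879501-54880000, with 53.1, 48.4, 52.0 and 51.6% in PRE_LS and 37.7, 27.1, 31.6 and 34.4% in HS_DT, a gap of -18.6 points (SE 2.45, adjusted p = 0.380 in the limma-moderated model). HS_SCR rats had 44.2, 32.2, 25.4 and 40.8%, also all below PRE_LS, a side that the choice of the bin favours. The 15 rats of the first table ran from 31.9 to 58.0% over 4 sites, against 7 sites in the second table. On chr4:198327001-198327500 PRE_LS rats had 28.9, 29.4, 33.5 and 29.6% and HS_DT rats 40, 42.5, 41.2 and 41.5%, while HS_SCR ran from 26.1 to 47.3%. On chr20:6920001-6920500 PRE_LS rats had 23.3, 20.5, 22.9 and 24.7%, HS_SCR rats 20.3, 21.4, 20.9 and 20.2% and HS_DT rats 14.5, 14.6, 15.9 and 15.2% over 6 sites. The rats of the first table had 24.2 to 47.1% over 4 sites of that bin.

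**Figure D5:**
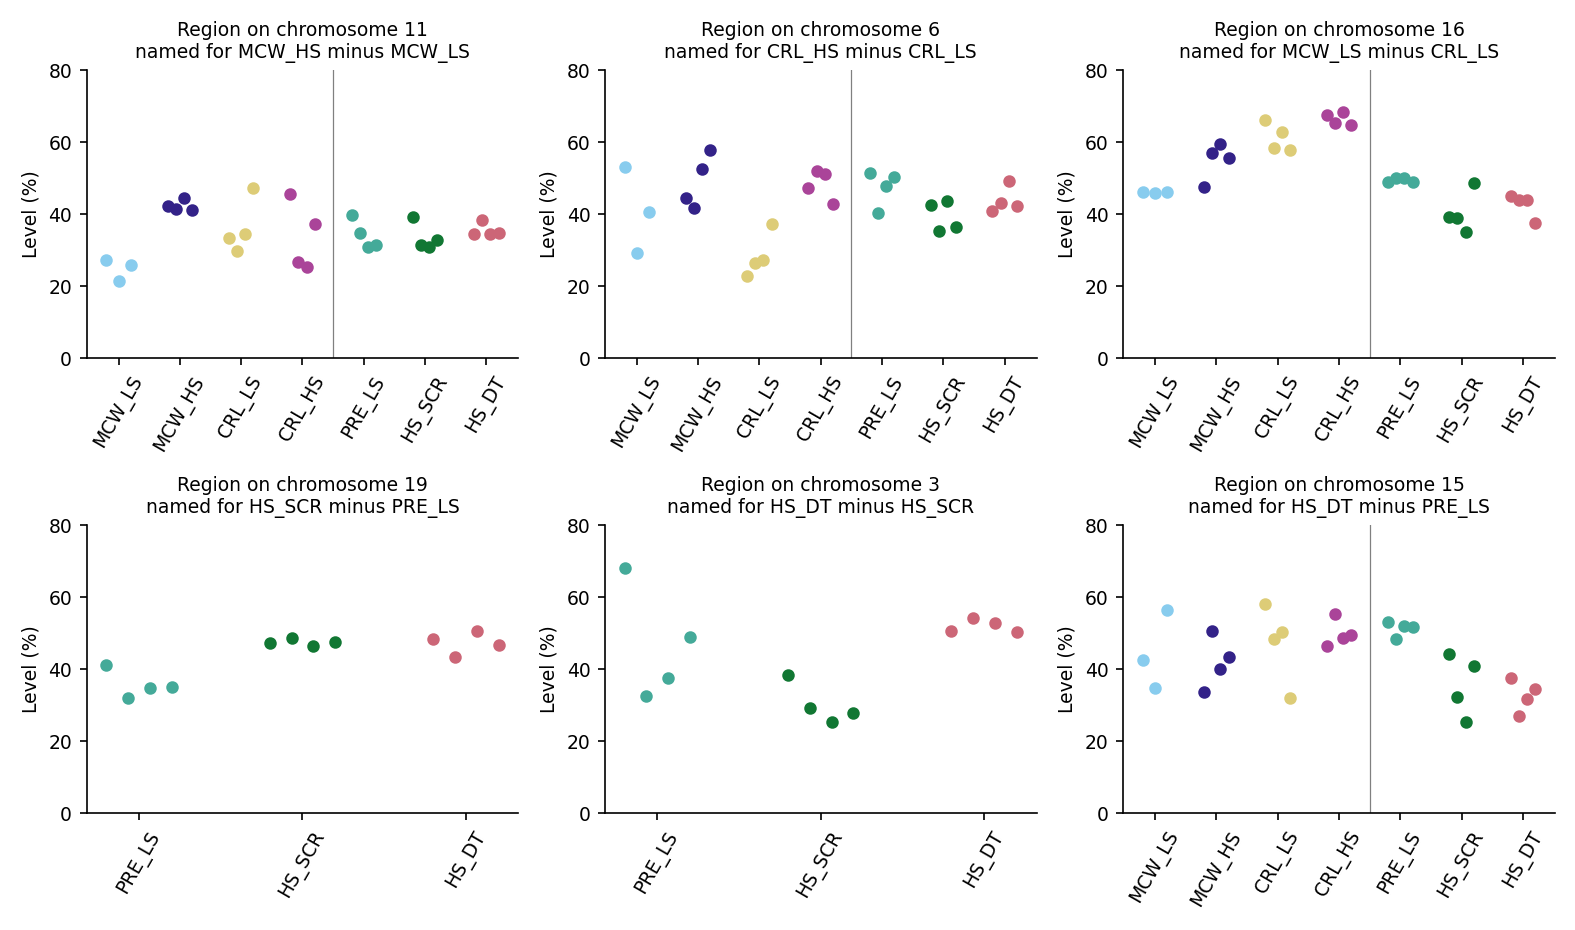
Methylation level (%) per rat (points) in 6 of the members named for a comparison, by group; a vertical line parts the first from the second table where both hold at least 3 common sites. The groups of the comparison in each title do not overlap, while other groups in the same panel often span both.

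The thresholds cut through a continuous range of levels. At the lower limit the nearest members were chr3:12288501-12289000 at 10.0023% and chr20:6848001-6848500 at 10.0050%, and the nearest bins outside were chr1:205194001-205194500 at 9.9967% and chr12:11570001-11570500 at 9.9908%. At the upper limit the nearest members were chr19:68565001-68565500 at 79.9995% and chr8:24692501-24693000 at 79.9994%, and the nearest outside were chr9:37016001-37016500 at 80.0011% and chr1:204660001-204660500 at 80.0012%. Within 1 point of 80% there were 2062 members and 1931 bins outside, and within 1 point of 10% there were 161 and 174.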

How the data were processed

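The deposited tables give the count of C and of T reads per CpG and rat, per the file headers. Per the submitters' processing notes, the authors used Trim Galore 0.2.5 and the rn5 build. For aligner and caller, names were not given in the sources used here. Positions were taken as deposited and binned by 500 bp. A common site has 10 or more reads in every library of its table (484749 sites in the first, 1219703 in the second). The members, the lists and the rules were chosen with earlier results of these data known. Bins with at least 3 common sites and a pooled level of 5 to 95% were fitted by quasi-binomial regression with 1 value per rat, dispersion moderated with squeezeVar of limma 3.58.1 and held at 1 or more, a two-sided F test and Benjamini-Hochberg adjustment over all bins, in R 4.3.3, Python 3.11.15, numpy 2.4.6, scipy 1.17.1 and pandas 2.3.3. The tables were tested separately, and the model was tested on simulated counts. Figures were drawn with matplotlib 3.10.9. Named per comparison are the 2 members per direction with the smallest p among those whose groups do not overlap (1 per direction for the difference of salt effects), passing over a bin whose counts equal those of one already named. Also named are the 3 of highest and of lowest SD, the 2 per direction with the largest difference between tables, the 2 longest runs and the bins nearest the thresholds. Replicate numbers did not pair rats.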

Additional observations from a re-analysis of the deposited data

Results flagged for a closer look

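Among the groups of 4 rats, 78 were examined for a single rat far from the other 3 (in mean member level, in the members named for a comparison and in those of highest and lowest SD), and 7 had one. Such a gap is found by chance in about 5% of groups. On chr13:114353501-114354000 CRL_HS replicate 3 had 88.4% and the others 81.5 to 81.8%. On chr8:44295001-44295500 HS_SCR replicate 3 had 81.3% and the others 75.2 to 76.3%. On chr4:198327001-198327500 PRE_LS replicate 3 had 33.5% and the others 28.9 to 29.6%. On chr10:89307001-89307500 MCW_HS replicate 3 had 20.8% and the others 15.9 to 16.5%. On chr1:242121501-242122000 HS_SCR replicate 4 had 38.9% and the others 55.6 to 58.1%. In the 2 bins of lowest SD the gap was small in points: HS_SCR replicate 3 had 25.1% against 25% on chr16:53899501-53900000, and HS_DT replicate 3 had 75.9% against 75% on chr7:139742001-139742500.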

How the results depend on the processing

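The count of called members stayed at 0 under 117 of 118 alternatives over the 8 comparisons (a minimum of 20 reads, limma on log ratios, no filter on the pooled level, a shared dispersion, a replicate block, a block for animal numbers, no copied counts, each library left out). The exception was MCW_LS minus CRL_LS, where leaving out single rats gave 0 to 7. With the replicate block 0 members were called and 4.44 to 5.91% had an unadjusted p under 0.05. Same-numbered rats deviated from their group means with correlations of -0.0422 to 0.0297, and the block changed no call. Of 101 alternatives for the differences of mean member level 99 moved by less than 1 SD between rats. MCW_HS minus MCW_LS was 1.00 points over members of 20 to 70%, where fewer bins of high level enter. The difference of salt effects was -0.306 points with reads summed over members, and the cause was not tested. At a minimum of 20 reads 4246 to 4254 members of the first table were tested, and 5.32 to 6.23% of them had an unadjusted p under 0.05, against 6.29 to 7.29% of all bins. None of 296 alternatives turned the direction of a named region. Apart from those for the difference of salt effects, these regions were named because the compared groups did not overlap. Leaving out a rat could therefore not turn their direction, and that outcome is no check of them. The number of members was 51303 at a minimum of 20 reads, 60390 without copied counts and 65723 with bins shifted by 250 bp. Only 24.6% of members had 3 or more common sites in the first table. The differences by make-up of sites, with their values for each rat left out, were added after seeing the data.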
